A study of Homo sapiens with 2 samples.

Results

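The microRNAs miR-10a, miR-10b, miR-196a and miR-196b, whose genes lie among the HOX genes, were examined in CL1-5 cells, a human lung adenocarcinoma line known for high invasiveness. They were chosen by assay name, and each name stood on 1 assay, so the set held 4 of the 365 miRNA assays on the card. One RNA sample came from cells stably carrying the empty pcDNA3.1 vector (the control, called vector cells), and 1 from cells stably made to express ANGPTL1, a secreted angiopoietin-like protein. Both cell populations were kept under the antibiotic G418 for 4 weeks. Whether either was a single clone or a pool is not given in the sources used here. With 1 sample in each group no value has a replicate error, no test was possible, and each difference compares these 2 RNA samples.

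HOX genes encode transcription factors that give cells along the body axis their positional identity, and they stand in 4 clusters, HOXA to HOXD, ordered along the chromosome much as they are used along the body. The miRNA genes between them are often transcribed with their neighbours, so the set of HOX miRNAs in a cell reflects which part of which cluster is active. A miRNA binds mRNAs mainly through its seed, bases 2 to 8 from its 5′ end. miR-196 is known for repressing HOX mRNAs such as that of HOXB8, and miR-10 for repressing HOX genes and for its study in tumour invasion.

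In the RefSeq annotation of GRCh38.p14, 5 genes encode the 4 miRNAs. MIR10A lay in HOXB on the minus strand at chr17:48579838-48579947, 1487 bases from HOXB4 and 11309 bases from HOXB5, within the span of HOXB3. MIR10B lay in HOXD on the plus strand at chr2:176150303-176150412, 1137 bases from HOXD4 and 17607 bases from HOXD8. Both miR-10 genes thus stood on the side of the HOX4 gene that faces the higher-numbered genes. MIR196B lay in HOXA on the minus strand at chr7:27169480-27169563, between HOXA9 (3942 bases) and HOXA10 (1041 bases), within the spans of the HOXA10-HOXA9 readthrough gene and of HOXA10-AS, a long noncoding RNA. MIR196A1 lay in HOXB on the minus strand at chr17:48632490-48632559, 6131 bases from HOXB9 and within the span of the long noncoding RNA HOXB-AS4. MIR196A2 lay in HOXC on the plus strand at chr12:53991738-53991847, 1458 bases from HOXC10 and 8313 bases from HOXC9. Spans do not show whether a miRNA gene is exonic or intronic in the gene around it.

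**Figure D1:**
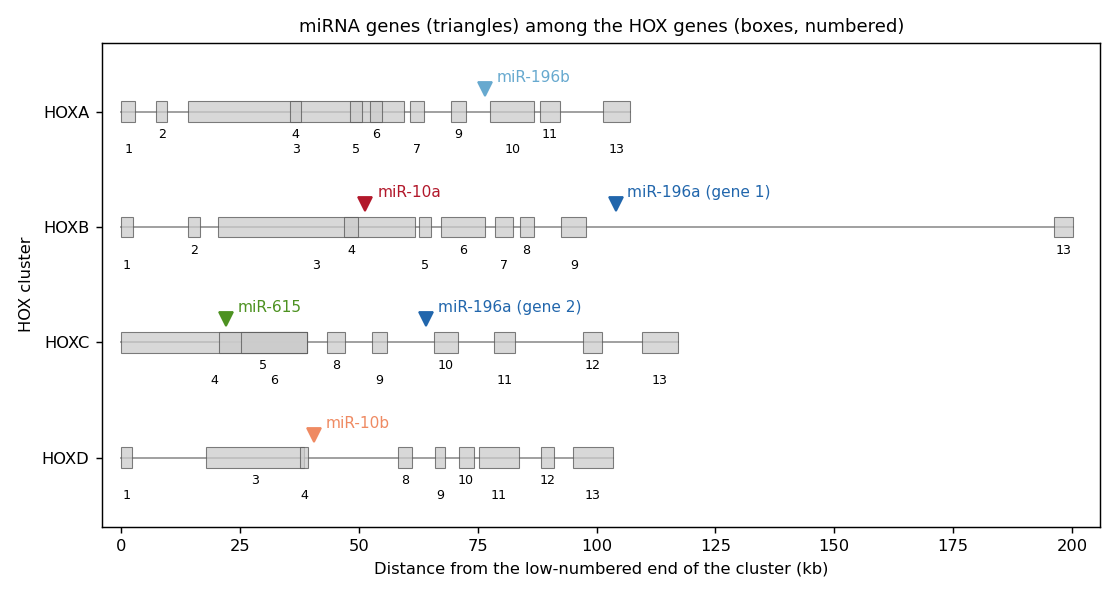
Positions of the miRNA genes (triangles) and of the RefSeq spans of the HOX genes (grey boxes, numbered below), in kb from the low-numbered end of each of the 4 clusters. The miR-10 genes stand next to the HOX4 genes of HOXB and HOXD, and the 3 miR-196 genes stand on the high-numbered side of the HOX9 genes of HOXA, HOXB and HOXC.

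The sequences decide which cluster an assay can report on. RefSeq mature entries matched 3 of the 4 members. The assay names carry no hairpin arm, and the 5p arm, for which these short names have been used, is shown with the seed in capitals.
miR-10a: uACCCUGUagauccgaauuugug
miR-196a: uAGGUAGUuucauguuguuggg
miR-196b: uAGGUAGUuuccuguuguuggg
miR-196a and miR-196b shared the seed AGGUAGU and differed at 1 of 22 positions, A12C (miR-196a first, counted from the 5′ end). The miR-10a seed, ACCCUGU, was a different one. miR-196a is cut from 2 genes in separate clusters, whose hairpins are shown with the mature sequence in capitals.
MIR196A1 (HOXB): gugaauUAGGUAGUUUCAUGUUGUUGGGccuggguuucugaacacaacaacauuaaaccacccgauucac
MIR196A2 (HOXC): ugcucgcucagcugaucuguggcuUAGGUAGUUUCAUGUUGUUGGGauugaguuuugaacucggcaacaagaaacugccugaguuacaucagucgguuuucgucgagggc
The 22 bases in capitals were identical, so a signal for mature miR-196a cannot be assigned to HOXB or to HOXC. Whether the miR-196a assay also reads miR-196b, or the reverse, was not tested.

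Each assay was read by quantitative reverse-transcription PCR as a threshold cycle (Ct), the point where the fluorescence passes a fixed threshold, so 1 cycle fewer means about 2-fold more template if each cycle doubles it. Detected here means a Ct below 35 of the 40 cycles run. By that limit 145 of 365 miRNAs (39.7%) were detected in both samples. Among the HOX-embedded miRNAs, miR-10a, miR-196a and miR-196b were detected in both samples, 3 of 4, and miR-10b in neither. The reference RNA was RNU48, a small nucleolar RNA, read at cycle 20.79 in vector cells and 21.21 in ANGPTL1 cells.

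The miR-10a of HOXB was read at cycle 28.26 in vector cells and 27.88 in ANGPTL1 cells. It was thus earlier in ANGPTL1 cells while RNU48 was later there. As a level relative to RNU48, miR-10a stood at 0.564% in vector cells and 0.982% in ANGPTL1 cells. The log2 ratio of ANGPTL1 cells over control, the delta Ct (Ct minus that of RNU48) of the control minus that of ANGPTL1 cells, was 0.80, a 1.74-fold difference. Without normalization the log2 ratio was 0.38, or 1.30-fold, so the direction of miR-10a was the same on both scales.

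The miR-10b of HOXD, the other copy of the miR-10 family among the HOX genes, was read at cycle 36.54 in vector cells and 36.04 in ANGPTL1 cells. Both cycles were later than the detection limit, and a difference in miR-10b was not detectable at this depth. The authors' deposited table gives 1.92-fold for miR-10b. The difference of 0.50 cycles lies within the range of late assays. A total of 25 miRNAs, miR-10b included, stood between cycle 35 and 40 in both samples. Their cycles in vector cells minus those in ANGPTL1 cells ran from -1.63 to 2.64, and 19 of the 25, again with miR-10b, differed by at least 0.50 cycles. Counted to the detection limit, the miR-10a assay stood about 107-fold above it in vector cells and about 139-fold in ANGPTL1 cells. These folds assume a doubling in each cycle and do not use the cycles of miR-10b. To set them against miR-10b would also need equal efficiency of the miR-10a and miR-10b assays, which was not tested.

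The miR-196a assay, which reads the product of HOXB, HOXC or both, crossed threshold at cycle 28.21 in vector cells and 28.64 in ANGPTL1 cells. The cycle was later in ANGPTL1 cells by nearly the same step as that of RNU48. Relative to RNU48 its level was 0.584% in vector cells and 0.580% in ANGPTL1 cells. The log2 ratio of miR-196a was -0.01, and -0.43 without normalization.

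The miR-196b of HOXA was read at cycle 29.35 in vector cells and 30.12 in ANGPTL1 cells. It was the later of the 2 miR-196 assays in both samples, by 1.14 cycles in vector cells and 1.48 in ANGPTL1 cells. Its level relative to RNU48 was 0.265% in vector cells and 0.208% in ANGPTL1 cells. The log2 ratio of miR-196b was -0.35, a level 1.27-fold lower in ANGPTL1 cells, and -0.77 without normalization.

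**Figure D2:**
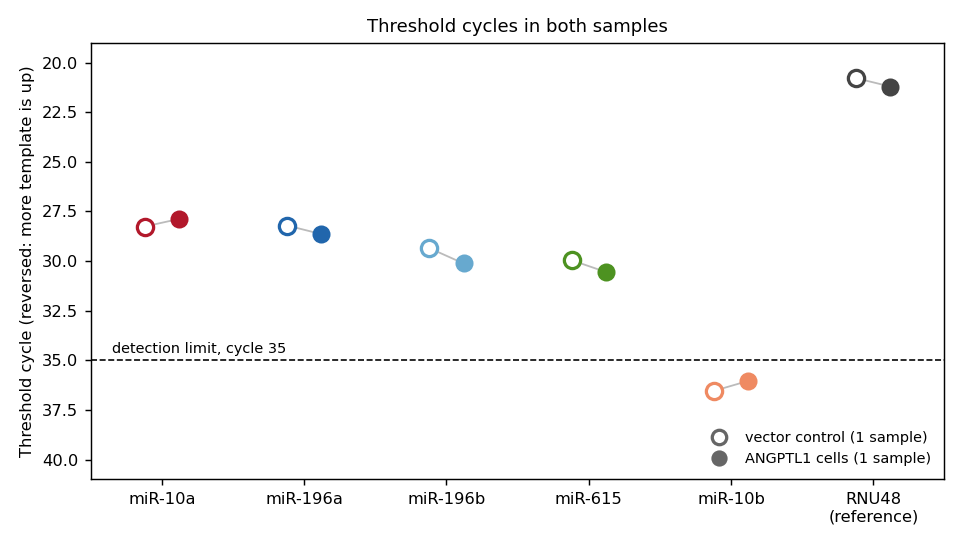
Threshold cycles of the HOX-embedded miRNAs and of RNU48 in the vector control (open circles) and in ANGPTL1 cells (filled circles), 1 sample each, on a reversed axis with the detection limit of cycle 35 dashed. miR-10a was earlier in ANGPTL1 cells, miR-196a, miR-196b, miR-615 and RNU48 were later, and miR-10b lay past the limit in both samples.

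In vector cells the cycles of miR-196a and miR-10a were 0.05 apart and miR-196b followed. In ANGPTL1 cells miR-10a came first, 0.76 cycles before miR-196a and 2.24 before miR-196b. The order of assays is that of their signals, since the efficiency of each assay is not given in the sources used here, but a change in the gap between them does not depend on RNU48. The log2 ratio of miR-10a was higher than that of miR-196a by 0.81 and than that of miR-196b by 1.15, a 2.22-fold gap, while the ratios of miR-196a and miR-196b were 0.34 apart. No replicate error exists to set beside these gaps. Only if miR-196a came wholly from HOXB, the cluster of miR-10a, would these be 2 products of HOXB with unequal ratios. With a part from HOXC, the ratio of the HOXB part is not known. MIR10A and MIR196A1 lie 52.5 kb apart, and the share of miR-196a from HOXB was not measured.

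Against all miRNAs detected in both samples, the members were of middling level. Ordered by level relative to RNU48, miR-196a was number 60 of 145 in vector cells and 62 in ANGPTL1 cells, miR-10a number 61 and 54, and miR-196b number 77 and 84. Of the 145 miRNAs, 11 (7.59%) had a level in ANGPTL1 cells that was higher by 2-fold or more and 7 (4.83%) one lower by as much, together 18 (12.4%). None of miR-10a, miR-196a and miR-196b passed 2-fold in either direction, with RNU48 or without normalization. At 1.5-fold, miR-10a alone of the 3 passed on the higher side, where 24 of 145 (16.6%) did, and none passed on the lower side relative to RNU48, where 28 (19.3%) did. Without normalization, miR-196b passed 1.5-fold on the lower side at 1.71-fold and miR-10a did not pass on the higher side. On that scale the median log2 ratio of all 145 miRNAs was -0.43. There, 29 of the 145 were lower by 2-fold or more and 6 higher. The share past 1.5-fold without normalization was not counted, so the pass of miR-196b is not read as particular to it.

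The log2 ratios of all 145 miRNAs had a median of -0.01, with an interquartile range from -0.41 to 0.33. miR-196a and miR-196b lay inside that range and miR-10a above it, with 13 of 145 miRNAs higher than miR-10a. Among the 59 other miRNAs with a mean cycle from 27 to 31, where the 3 members lie, 9 had a log2 ratio at least as far from 0 as that of miR-10a, and 28 at least as far as that of miR-196b. With 1 sample in each group, noise cannot be told apart from true differences in these ratios.

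**Figure D3:**
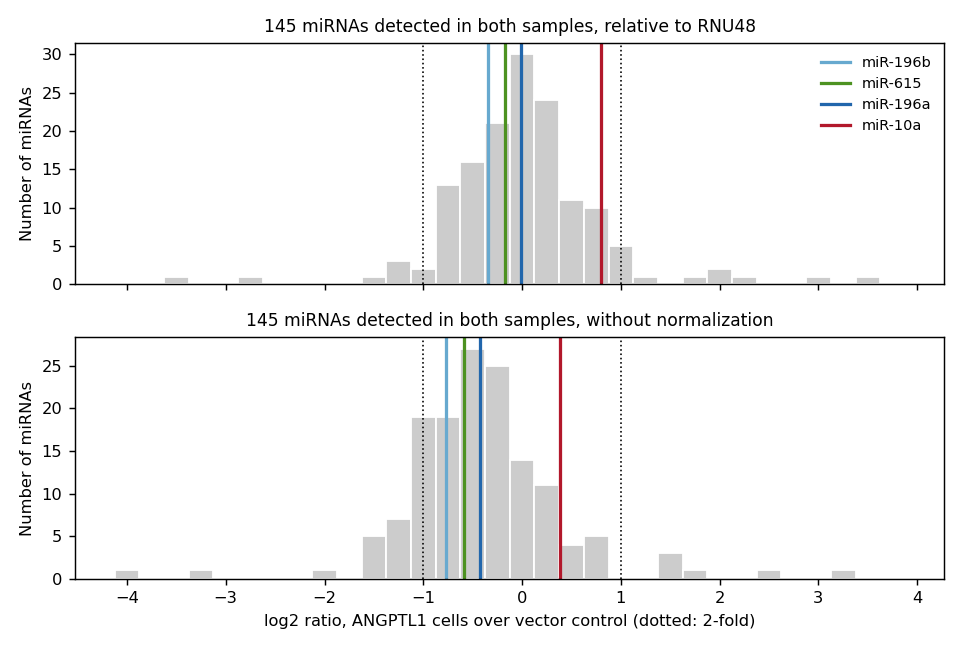
Number of miRNAs (vertical axis) by log2 ratio of ANGPTL1 cells over control for the 145 miRNAs detected in both samples, relative to RNU48 (top) and without normalization (bottom), with coloured lines for the HOX-embedded miRNAs and dotted lines at 2-fold. miR-10a stands above the bulk and miR-196b, miR-615 and miR-196a within it; all lie inside 2-fold in both panels.

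Another HOX miRNA on the card was miR-615, whose gene lies in HOXC at chr12:54033950-54034045 within the spans of HOXC5 and HOXC4, 42.1 kb from MIR196A2. Its assay, with the arm not named, was read at cycle 29.96 in vector cells and 30.55 in ANGPTL1 cells. It was thus detected in both samples and later in ANGPTL1 cells. The log2 ratio of miR-615 was -0.17, and -0.59 without normalization. By miRNAs with 1 source cluster, HOXB (miR-10a), HOXA (miR-196b) and HOXC (miR-615) each had a product below cycle 35 in both samples, and HOXD (miR-10b) had none. Whether the miR-10b assay reads any miR-10a, or the reverse, was not tested. Over these and miR-196a, 1 of 4 log2 ratios lay above 0 relative to RNU48 and 1 of 4 without normalization, miR-10a in both cases, beside 72 and 30 of all 145 miRNAs. With the median of the detected miRNAs as reference miR-196a stood at 0.00.

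miR-10a belongs by sequence to a wider family with miR-99, miR-100 and miR-125, whose genes lie outside the HOX clusters. miR-100 is shown for comparison with its seed in capitals.
miR-100: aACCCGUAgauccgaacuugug
The longest run shared by miR-10a and miR-100 was 11 bases, 7 to 17 of miR-10a and 6 to 16 of miR-100, so the match is shifted by 1 base and the seeds differ. The longest run shared with miR-10a was 10 bases for miR-99a, and 5 bases for each of miR-99b, miR-125a and miR-125b. All 5 relatives (miR-99a, miR-99b, miR-100, miR-125a and miR-125b) were detected in both samples, and their log2 ratios ran from 0.22 to 0.65 with a median of 0.43, against 0.80 for miR-10a and -0.01 for all 145 miRNAs. Without normalization the relatives ran from -0.20 to 0.23 with a median of 0.01, 3 above and 2 below 0, against -0.43 for all 145. None passed 2-fold on either scale.

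All 5 relatives were read at an earlier cycle than miR-10a in both samples, miR-99b by under 1 cycle. miR-100 was read at cycle 22.20 in vector cells and 21.97 in ANGPTL1 cells, and miR-99a at 22.41 and 22.24. Like miR-10a, both were earlier in ANGPTL1 cells. Their log2 ratios were 0.65 for miR-100 and 0.59 for miR-99a. Whether the miR-10a assay reads any miR-100 or miR-99a was not tested.

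**Figure D4:**
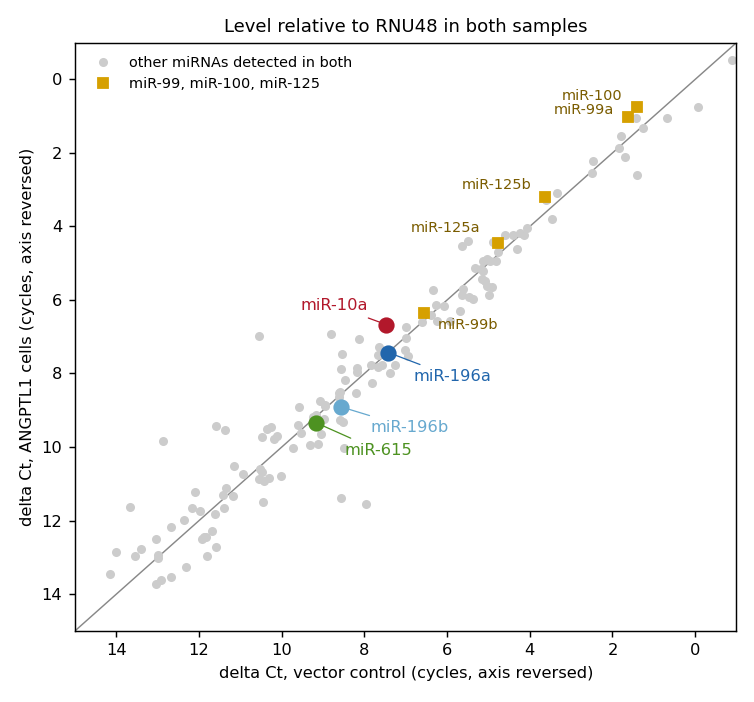
Delta Ct in the vector control (horizontal) and in ANGPTL1 cells (vertical), in cycles on reversed axes so that higher levels lie up and to the right, for the 145 miRNAs detected in both samples; the line marks equal values. miR-10a and the 5 sequence relatives lie above the line, miR-196a on it, and miR-196b and miR-615 below it.

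The miRNAs whose delta Ct lay nearest to each member in both samples were found by distance over the 2 samples. Nearest to miR-10a were let-7a, 0.49 cycles away, and miR-192, 0.60 cycles away. Nearest to miR-196a were miR-423 (0.27 cycles) and miR-149 (0.27 cycles), and nearest to miR-196b were miR-193a (0.28 cycles) and miR-501 (0.35 cycles). With 2 samples such nearness describes level only.

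Markers of cell types gave a mixed picture of the line. Of 8 epithelial assays 2 were detected in both samples, those of miR-200c and miR-203, and miR-200b, miR-205 and miR-429 stood at cycle 40 in both. Summed over detected assays, epithelial markers were at 0.155% of RNU48 in vector cells and 0.228% in ANGPTL1 cells, higher in ANGPTL1 cells as was miR-10a. The 2 detected assays went opposite ways, miR-200c with a log2 ratio of 1.82 and miR-203 with -0.30, so the rise in the sum was that of miR-200c. The part of this in the miR-10a result was not tested. Of 4 blood cell assays none was detected in both samples, of 5 fibroblast and smooth muscle assays 1 was, of 4 muscle assays 1 was, and the liver assay was in neither. The blood cell sum was 0.00741% of RNU48 in vector cells, from miR-142-3p alone at cycle 34.51. In ANGPTL1 cells miR-142-3p was at cycle 37.19 and no blood cell assay was detected. The fibroblast and smooth muscle sum was 0.0119% of RNU48 in vector cells and 0.00731% in ANGPTL1 cells, and the muscle sum 0.0255% and 0.0174%. Both endothelial assays, named miR-126, were detected, at a sum of 3.14% of RNU48 in vector cells and 2.46% in ANGPTL1 cells, with log2 ratios of 0.33 (assay 4373269) and, for the more abundant assay 4378064, -0.41. Of 4 neuronal assays 2 were detected in both samples, both named miR-9, and the neuronal sum was 3.48% in vector cells and 2.11% in ANGPTL1 cells. The neuronal miR-137 went the other way, at cycle 35.74 in vector cells and 33.11 in ANGPTL1 cells, where alone it was detected. The remaining neuronal assay, miR-124a, stood at cycle 40 in both samples. The endothelial, neuronal, blood cell, fibroblast and muscle sums, each set mainly by 1 assay, were lower in ANGPTL1 cells, as was miR-196b. Their part in the miR-196b result was not tested.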

How the data were processed

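Mature miRNAs were measured from 500 ng of total RNA by TaqMan assays on a low-density card (Human MicroRNA Panel) with 40 PCR cycles, per the labels' protocols. The deposited tables held, per the file headers, average threshold cycles and delta Ct (the score values used here) and the authors' fold change, a ratio of ANGPTL1 cells over control. How many wells were averaged is not given in the sources used here, nor is their spread. Delta Ct differed from the recomputed difference of cycles by at most 0.01. The 2 columns of linear levels were not used.

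Groups came from the treatment label. Each log2 ratio was the delta Ct of vector cells less that of ANGPTL1 cells, given only where both cycles were below 35. Named were the members, RNU48, miR-615, the sequence relatives, and the 2 nearest miRNAs by delta Ct for each detected member. The members, lists and rules were chosen with earlier results of these data known. Marker assays matched by name. References, detection limits and folds were varied. Calculations used Python 3.11.15 and numpy 2.4.6. The arithmetic of ratios and counts was tested on simulated cycles without noise, which says nothing of the error of late cycles. Sequences and positions came from RefSeq, GRCh38.p14. The number of samples limits the precision.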

Additional observations from a re-analysis of the deposited data

How the results depend on the processing

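With the median or mean of the detected miRNAs as reference, the log2 ratios of miR-10a, miR-196a and miR-196b moved by less than 0.1. They also did so with RNU48 recomputed from the cycles or with the authors' deposited fold change. Those last settings use the same cycles and the same reference, so they check the arithmetic only. Without normalization they were 0.38, -0.43 and -0.77, each lower by the RNU48 difference of 0.42. miR-10b has no ratio with the limit of 35. With a limit of 38, chosen after seeing the data, its log2 ratio was 0.94, or 0.50 without normalization. Of the members, 3 were detected in both samples below cycle 32 and 4 below 38 or with no limit other than 40. The share of all 365 miRNAs detected at those limits was not counted, so these counts are not read as particular to the members. Of all miRNAs, 11 higher and 7 lower by 2-fold became 6 and 29 without normalization, 6 and 2 below cycle 32, 23 and 11 below 38, 29 and 12 with no limit other than 40, 24 and 28 at 1.5-fold, and 4 and 2 at 4-fold. These settings count other assays, shift all ratios or change the threshold by construction. No paired analysis was possible because there is a single sample of each kind, and no replicate could be left out. Ratios have no replicate error, and late cycles limit what can be said of miR-10b.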

Other observations

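The seed of miR-196, AGGUAGU, also occurs in the let-7 miRNAs, known as repressors of HMGA2 and RAS, but 1 base further from the 5′ end. In let-7a, shown with those letters in capitals, they fill bases 3 to 9.
let-7a: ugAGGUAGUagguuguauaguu
Of 8 let-7 names (let-7a to let-7i) with a 5p entry in RefSeq, 7 held this run and let-7e did not. In CL1-5 cells, 7 let-7 assays were on the card, let-7e among them and let-7i not, and all were detected in both samples. Their log2 ratios lay above 0 in 6 of 7 relative to RNU48, with a median of 0.68, and in 4 of 7 without normalization, with a median of 0.26. Of all 145 miRNAs detected in both samples, 72 lay above 0 relative to RNU48 (median -0.01) and 30 without normalization (median -0.43). A count added after the data were seen covered the 6 let-7 assays whose miRNA holds the run. Of these, 5 lay above 0 relative to RNU48, with a median of 0.74, and 4 without normalization, with a median of 0.32. miR-98, which has the same seed as let-7a, was not in either let-7 count. Its log2 ratio was 0.21, and -0.21 without normalization. miR-196a and miR-196b stood at -0.01 and -0.35 relative to RNU48 and at -0.43 and -0.77 without normalization. At least 2-fold higher relative to RNU48 were 2 of the 7 let-7 miRNAs, let-7b and let-7c, beside 7.59% of all miRNAs detected in both samples. Without normalization 1 of the 7 was, beside 6 of all 145. The let-7c assay was read close to the detection limit of 35, at cycle 34.79 in vector cells and 34.08 in ANGPTL1 cells. A match of letters is a description and shows no shared target.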
